A study of Mus musculus with 12 samples.

Results

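The glucocorticoid receptor, encoded by Nr3c1, and 9 of its well known target genes were followed in whole kidney of mice given the kinase inhibitor SK-124 or vehicle. The 10 genes, Zbtb16, Tsc22d3, Fkbp5, Nr3c1, Hif3a, Lpin1, Rhob, Map3k6, Arrdc2 and Arrdc3, were taken by name from the 55401 genes of the tables, and all 10 were found. They were listed together because their levels had been seen to differ between these same groups, so their own differences are given here as a description without a test. Male C57BL6 mice, 8 weeks old per the study's methods, received 1 intraperitoneal injection of SK-124 at 40 mg/kg or of the carrier alone, 15% 2-hydroxypropyl-beta-cyclodextrin, with 6 mice in each group. SK-124 inhibits the salt-inducible kinases SIK2 and SIK3, and the study asked how such inhibitors change gene expression in the kidney that makes active vitamin D. The mice carried no transgene. Whole kidney holds every renal cell type, so fewer cells of a type and less RNA per cell cannot be told apart in these values.

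Glucocorticoids are steroid hormones of the adrenal cortex. Bound by hormone, the receptor leaves a chaperone complex in the cytoplasm, enters the nucleus and binds response elements near its target genes. Many targets answer within hours in nearly every tissue and feed back on the pathway, Fkbp5 on the receptor's affinity for hormone and Tsc22d3 on inflammatory signalling. Several are shared with other pathways, among them cyclic AMP and FOXO signalling. Circulating corticosterone was not measured in the files used here.

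The 12 libraries held between 19244227 and 19771802 expected counts each. The 10 most abundant genes took 44.4% to 46.8% of the counts in SK-124 mice 1 to 3, 38.6% to 40.2% in SK-124 mice 4 to 6 and 39.9% to 43.2% in the vehicle mice. Levels are therefore given as CPM, the counts of a gene relative to the library total after scaling by TMM factors, which set libraries side by side by the bulk of their genes. A gene was called where edgeR's quasi-likelihood test gave a false discovery rate (FDR, Benjamini-Hochberg over 14159 genes) below 0.05. By this rule 1536 genes, 10.8% of those tested, were higher with SK-124 and 1917, 13.5%, were lower, 24.4% in either direction. With library totals in place of TMM factors, 777 were higher and 3058 lower, and the median gene then shifted by -0.12 on the log2 scale. By limma on log2(TPM + 1) 500 were higher and 2130 lower. All 6 SK-124 mice lay above all 6 vehicle mice for 6.32% of genes and below them for 6.65%. Against these shares, 9 of the 10 chosen genes were higher with SK-124 and 1, Nr3c1, was lower, and the groups did not overlap for any of the 10. Nothing is read from that count, since the genes were chosen on this contrast. Their median log2 fold change was 2.20, against -0.0050 over all genes tested. The direction of each of the 10 was the same under TMM factors and library totals.

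**Figure D1:**
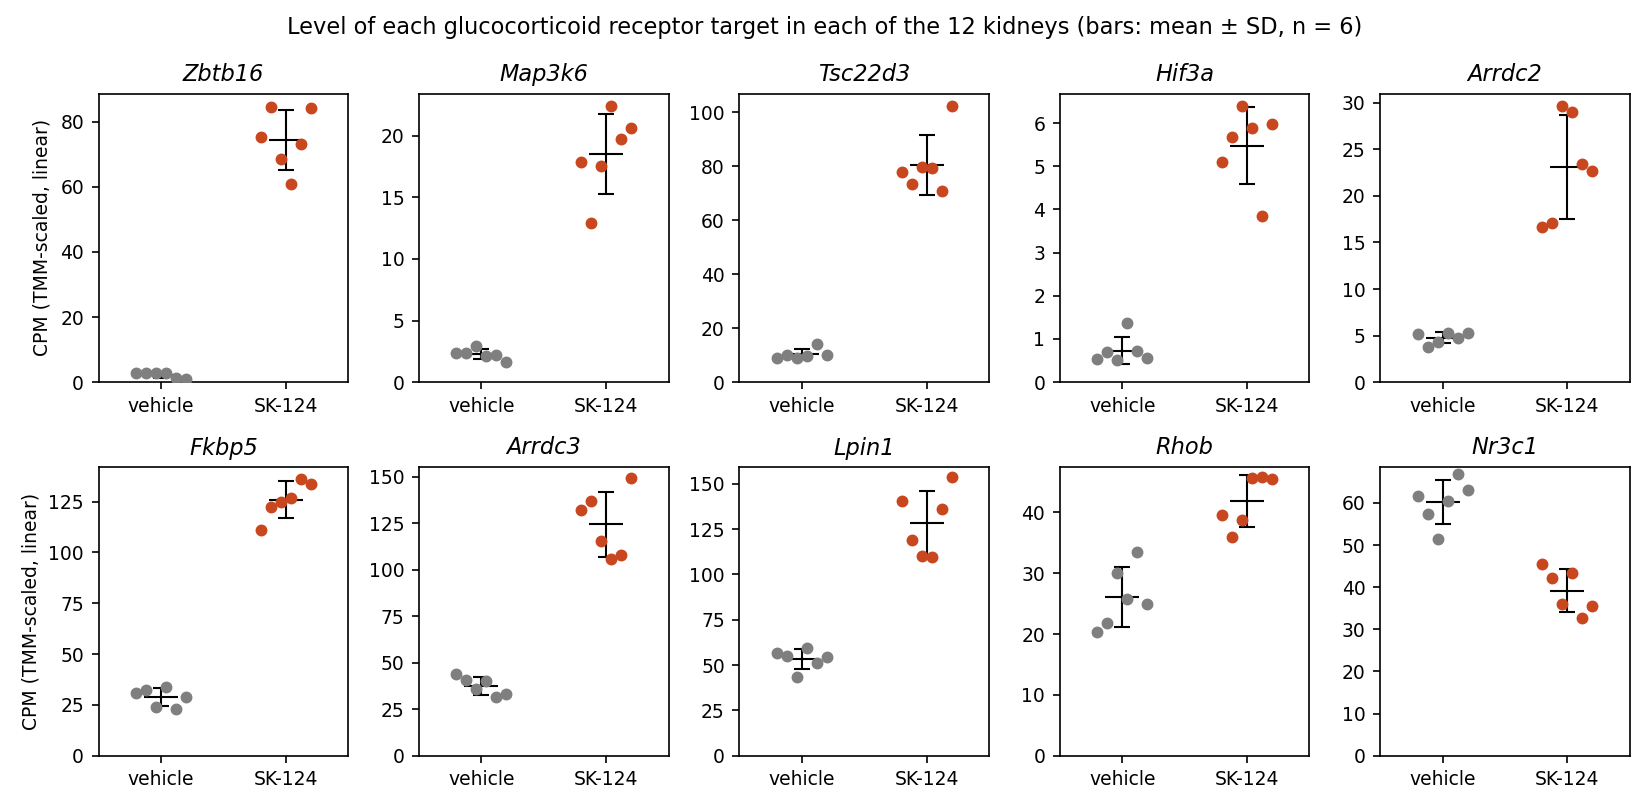
Each panel plots 1 gene's level in CPM (TMM-scaled, linear axis from 0) in the 6 vehicle and 6 SK-124 mice, a point per mouse, with the mean and SD as a bar. The 2 groups do not overlap in any panel, as for Zbtb16 (vehicle at most 2.86 CPM, SK-124 at least 60.9) and, with far less between the groups, Rhob (33.6 and 36.0).

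Nr3c1, the receptor itself, was the gene of the set that was lower with SK-124. It lies on the minus strand of chromosome 18, chr18:39410545-39519421 in mm10. Its level in the vehicle mice was 61.6, 57.5, 51.5, 60.4, 66.8 and 63.0 CPM, and in the SK-124 mice it was 45.5, 42.2, 36.0, 43.4, 32.6 and 35.5 CPM. Every treated mouse was below every vehicle mouse, by at least the step from 45.5 to 51.5 CPM. This made a log2 fold change of -0.62 (SE 0.08, n = 6 and 6).

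Zbtb16 encodes PLZF, a zinc finger transcription factor of the BTB family that mostly represses its targets. It lies at chr9:48654297-48836222 on the minus strand. Its level was 2.86, 2.68, 2.76, 2.67, 1.33 and 0.853 CPM in the vehicle mice and 75.3, 84.5, 68.6, 60.9, 73.3 and 84.3 CPM in the SK-124 mice. Vehicle mice 5 and 6 held less of it than the other 4, and the treated mice spanned a narrow range for so large a difference. The log2 fold change was 5.09 (SE 0.18), a 34.1-fold higher level, the largest of the 10.

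Tsc22d3, also called GILZ, encodes a leucine zipper protein that carries part of the anti-inflammatory action of glucocorticoids. It lies at chrX:140539528-140600659 on the minus strand. It was at 9.13, 10.2, 8.84, 9.88, 14.2 and 10.1 CPM in vehicle mice and at 77.9, 73.6, 79.6, 79.4, 70.7 and 102 CPM in SK-124 mice. Vehicle mouse 5 and SK-124 mouse 6 stood above the rest of their groups, and even so the groups were far apart. Its log2 fold change was 2.95 (SE 0.11).

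Fkbp5 encodes FKBP51, a co-chaperone that lowers the receptor's affinity for hormone. It lies at chr17:28399094-28517527 on the minus strand, and 4 other annotated genes overlap it, 2 of them on the opposite strand. Only the spans of whole genes were compared. Whether reads of these genes were counted for Fkbp5 was not checked, and no source used states whether counting used strand. Vehicle mice held 30.9, 32.2, 23.9, 33.9, 23.1 and 29.0 CPM, and SK-124 mice held 111, 122, 125, 127, 136 and 134 CPM. The treated mice varied little around their mean of 126 CPM (SD 9.07). On the log2 scale the fold change was 2.13 (SE 0.09).

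Hif3a encodes an alpha subunit of the hypoxia-inducible factors, several splice forms of which restrain the others. It lies at chr7:17031507-17062427 on the minus strand, with an overlapping gene on the opposite strand. It was the least abundant of the 10, at 0.543, 0.694, 0.511, 1.36, 0.712 and 0.569 CPM in vehicle mice and 5.10, 5.67, 6.39, 5.89, 3.86 and 5.98 CPM in SK-124 mice. Vehicle mouse 4 was high and SK-124 mouse 5 low within their groups, with no overlap between groups. The log2 fold change was 2.90 (SE 0.20), the least precise of the set, and Hif3a alone of the 10 would not have passed the filter on low counts in the vehicle mice. It came to 2.09 on log2(TPM + 0.1) and to 0.85 on log2(TPM + 1), the pseudocount of 1 being close to the gene's own level in TPM.

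Among the signalling genes, Map3k6 encodes the stress-activated kinase ASK2 and lies at chr4:133240818-133252929 on the plus strand. It was at 2.37, 2.33, 2.96, 2.12, 2.23 and 1.66 CPM in vehicle mice and at 17.8, 12.9, 17.5, 22.4, 19.7 and 20.6 CPM in SK-124 mice. SK-124 mouse 2 was the lowest of the treated mice and still above every vehicle mouse. The log2 fold change was 3.02 (SE 0.14), second to that of Zbtb16.

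Rhob, a small GTPase of endosomes and the actin cytoskeleton, lies at chr12:8497661-8500009 on the minus strand and showed the smallest difference among the genes that were higher. Vehicle mice held 20.4, 21.9, 29.98, 25.8, 33.6 and 25.0 CPM and SK-124 mice 39.6, 36.0, 38.8, 45.6, 45.8 and 45.6 CPM. SK-124 mice 4 to 6 lay above mice 1 to 3. The log2 fold change was 0.68 (SE 0.11). On the TPM scale, which is not corrected for the counts that a few abundant genes took, the groups overlapped, since the highest vehicle mouse was at 15.35 TPM and the lowest SK-124 mouse at 12.15 TPM.

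Arrdc2 and Arrdc3 encode alpha-arrestins, adaptors that bring ubiquitin ligases to membrane proteins such as the beta-adrenergic receptors. Arrdc2, at chr8:70835129-70839720 on the minus strand, was at 5.18, 3.77, 4.34, 5.24, 4.74 and 5.31 CPM in vehicle mice and at 16.7, 17.1, 29.7, 29.0, 23.4 and 22.7 CPM in SK-124 mice. Its treated mice spread widely, mice 1 and 2 being lowest. Arrdc2 had a log2 fold change of 2.28 (SE 0.15). Arrdc3, at chr13:80883384-80896042 on the plus strand with an overlapping gene on the opposite strand, was at 43.9, 40.6, 35.9, 40.03, 31.5 and 33.4 CPM in vehicle mice and at 132, 137, 116, 106, 108 and 149 CPM in SK-124 mice. Here mice 1, 2 and 6 were the highest of the treated group. Arrdc3 had a log2 fold change of 1.73 (SE 0.10).

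Lpin1 encodes lipin-1, a phosphatidate phosphatase that makes diacylglycerol and also acts with nuclear receptors on fat oxidation genes. Vehicle mice held 56.5, 54.8, 43.5, 59.4, 51.1 and 54.5 CPM, and SK-124 mice held 140, 119, 110, 110, 136 and 154 CPM. The groups were apart, with vehicle mouse 3 lowest. Lpin1 had a log2 fold change of 1.27 (SE 0.09).

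Promoter sequences were read because the set is defined by a DNA-binding receptor. RefSeq promoter windows of GRCm38.p6, from 250 bases before to 50 after a start site, were searched for 8 of the 10 genes, 12 windows in all. Zbtb16 and Nr3c1 were left out of this search, so the motif counts do not cover the receptor gene itself. The full palindromic response element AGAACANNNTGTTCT was in 0 of the 12 windows and in 0.00913% of all 32851 windows. Its 6-base core AGAACA, searched on both strands, was in 2 of the 12 and in 18.97% of all windows. These 2 stretches are shown because they are the matches the receptor's own motif gave, each printed along the gene's strand with the core, here as its complement TGTTCT, in capitals.
Tsc22d3, chrX:140600672-140600737, minus strand: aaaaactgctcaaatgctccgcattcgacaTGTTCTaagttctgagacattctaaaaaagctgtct
Lpin1, chr12:16611094-16611159, minus strand: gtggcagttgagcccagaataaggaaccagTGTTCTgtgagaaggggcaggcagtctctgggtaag
The core began 185 bases before the start site in the Tsc22d3 window and 163 before it in the Lpin1 window. The cyclic AMP response element TGACGTCA was in 0 of the 12 windows and 1.79% of all, and its core TGACG, which the full element contains, was in 2 of the 12, in Tsc22d3 and Arrdc3, and in 20.8% of all. The FOXO site GTAAACA was in 0 of the 12 and 3.65% of all. Binding was not measured in these samples, and a window this short leaves out the distant elements through which the receptor is known to act at many genes.

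Levels can be ordered between genes only per length, in TPM, the share of all transcripts of a library scaled to gene length. In the vehicle mice the order of mean levels was Arrdc3 (13.0 TPM, SD 1.29), Rhob (11.2, SD 2.35), Nr3c1 (9.65, SD 1.39), Lpin1 (9.32, SD 1.23), Fkbp5 (8.01, SD 1.27), Tsc22d3 (5.77, SD 1.29), Arrdc2 (3.16, SD 0.51), Map3k6 (1.302, SD 0.35), Zbtb16 (0.44, SD 0.17) and Hif3a (0.25, SD 0.21). The ranges of neighbours overlapped from Arrdc3 down to Tsc22d3 and between Zbtb16 and Hif3a, whereas Tsc22d3, Arrdc2 and Map3k6 were each clear of the next gene. In the SK-124 mice the order was Tsc22d3 (38.2 TPM, SD 8.14), Arrdc3 (38.2, SD 5.90), Fkbp5 (31.6, SD 5.47), Lpin1 (20.3, SD 4.36), Rhob (16.4, SD 3.40), Zbtb16 (13.0, SD 1.96), Arrdc2 (12.3, SD 3.46), Map3k6 (8.62, SD 2.09), Nr3c1 (5.81, SD 0.65) and Hif3a (1.27, SD 0.41). All neighbours overlapped in that group except Nr3c1 and Hif3a. Nr3c1 thus stood at rank 3 in the vehicle kidneys and rank 9 in the treated ones, and Zbtb16 at ranks 9 and 6.

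Whether the 10 genes varied together from mouse to mouse was asked within each group, so that the difference between the groups did not enter. Between mice of a group, the median SD of the 10 genes was 0.22 on the log2(CPM + 0.5) scale in vehicle and 0.19 in SK-124 mice, against 0.15 and 0.14 over all genes tested. The 45 pairs of genes in each group gave 90 correlations, each tested by an exact two-sided permutation test over 6 mice. None had a Benjamini-Hochberg adjusted p below 0.05, the smallest being 0.771. With 6 mice the exact permutation test cannot go below p = 0.00139, which is 0.125 after adjustment for a lone pair, so at least 3 pairs at that limit would be needed for any to pass, and the absence of adjusted calls does not show that the genes varied apart. Unadjusted, 2 pairs in vehicle and 3 in SK-124 mice fell below 0.05. In each group 25 of 45 pairs were positive, with a median Pearson's r of 0.059 in vehicle and 0.147 in SK-124 mice. On log2(TPM + 1) the median in SK-124 mice was 0.512 and on log2(TPM + 0.1) it was 0.516, a scale without TMM factors, and the part of the library make-up of mice 1 to 3 in this was not tested. Without SK-124 mouse 6 the median was -0.116. Of the 45 pairs, 12 were positive in both groups and 7 negative in both.

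The highest and lowest pairs differed between the groups. In vehicle mice, Fkbp5 and Lpin1 had r = 0.833 (Spearman's rho = 0.886, exact permutation p = 0.0181 and 0.0333, adjusted 0.771 and 0.750), and r was 0.754 without the 2 mice farthest from the median of Fkbp5. Rhob and Arrdc3 there had r = -0.831 (rho = -0.829, exact permutation p = 0.0472 and 0.0583, adjusted 0.771 and 0.750), which fell to -0.448 without the 2 farthest mice. In SK-124 mice, Rhob and Map3k6 had r = 0.913 (rho = 0.829, exact permutation p = 0.00972 and 0.0583, adjusted 0.771 and 0.750), and 0.820 without the 2 farthest. Fkbp5 and Nr3c1 there had r = -0.820 (rho = -0.829, exact permutation p = 0.0375 and 0.0583, adjusted 0.771 and 0.750), and -0.526 without them. These 4 relations did not pass the correction, which no lone pair could. Among the treated mice, mouse 6 was highest for 3 of the 9 genes that were higher and mouse 4 lowest for 3, so no mouse led throughout.

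**Figure D2:**
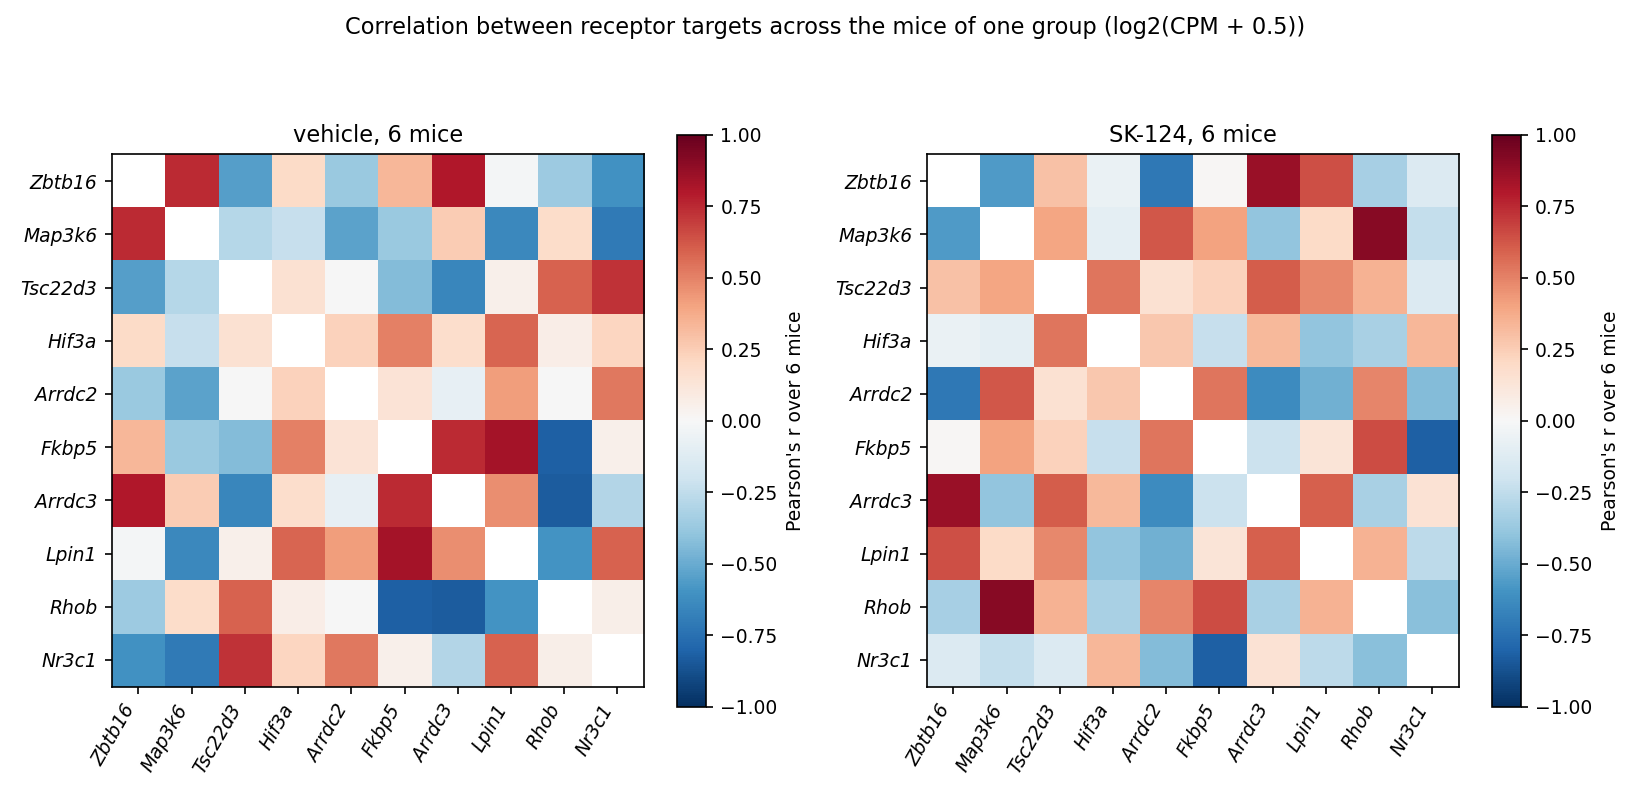
The 2 matrices show, for the vehicle (left) and SK-124 mice (right), Pearson's r between each pair of the 10 genes over 6 mice, red for positive and blue for negative, with the diagonal left blank. Both matrices mix the 2 colours, 25 of 45 pairs being positive in each, and with 6 mice no lone pair could pass the correction for 90 tests.

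The genes whose pattern was most like that of Zbtb16 were found by subtracting each group's mean and correlating what remained over the 12 mice, in a pool of 13007 genes that averaged 1 CPM or more. They were Ppp1r21 (r = 0.903), Borcs7 (0.899), Rufy1 (0.896), Derl2 (0.854) and Sugp1 (0.851). Over the whole pool r ran from -0.511 at the 5th percentile to 0.510 at the 95th. In vehicle mice alone r was 0.920, 0.952, 0.891, 0.889 and 0.973 for the 5 genes in that order. In SK-124 mice alone it was 0.718, 0.411, 0.950, 0.695 and -0.342, so Sugp1 ran the other way there. The 5 genes were picked for the largest r over these same 12 mice, so their values within a group are not independent of that choice. Zbtb16 itself varied more in vehicle mice (SD 0.557 on the log2 scale) than in SK-124 mice (0.180). With TMM factors and all 12 mice none of the 5 was called by edgeR between SK-124 and vehicle, Ppp1r21 having a log2 fold change of -0.13 (SE 0.05) and edgeR FDR of 0.0845. With library totals Ppp1r21 (-0.25, edgeR FDR 0.0103), Rufy1 (-0.21, FDR 0.0258) and Derl2 (-0.21, FDR 0.0366) were called, and Ppp1r21 also without vehicle mouse 6 (-0.16, edgeR FDR 0.0442). Sugp1 was at 0.01 (SE 0.07), a sign that turned to -0.10 with library totals. Of the other 9 chosen genes Arrdc3 was the most like Zbtb16, at 0.706 or the 99.4th percentile, with r = 0.797 in vehicle and 0.866 in SK-124 mice. Without the 2 mice farthest from the median of Zbtb16, r was 0.377 in vehicle and 0.841 in SK-124 mice. The adjusted exact permutation p of this pair was 0.771 in each group. Tsc22d3, Nr3c1, Rhob and Arrdc2 lay between -0.358 and -0.352.

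Relatives of the 10 genes were listed by family, also with earlier results of these data known. Of 67 listed paralogs 64 were tested, and 7 rose, 9 fell and 48 were not called, with a median log2 fold change of -0.03. That is 10.9% higher and 14.1% lower, against 10.8% and 13.5% of all genes. The BTB zinc finger genes were the largest family. Of the 35 tested, 2 were higher (5.71%, against 10.8% of all genes) and 7 lower, a larger share than the 13.5% of all genes. Zbtb21 was the highest of them, from a median of 9.64 CPM (8.89 to 10.5) to 13.5 CPM (12.6 to 15.7), a log2 fold change of 0.49 (SE 0.07, edgeR FDR 4.28e-05), which was 0.31 and no longer called on log2(TPM + 1) (limma FDR 0.0513). Zbtb12 was the lowest, from 3.98 CPM (3.03 to 4.44) to 1.91 CPM (1.78 to 2.46), at -0.93 (SE 0.13, edgeR FDR 5.87e-05). The groups did not overlap for either.

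Several families had members on both sides of the threshold. Tsc22d1, which has the leucine zipper of Tsc22d3, rose from a median of 138 CPM (112 to 151) to 343 CPM (266 to 410), a log2 fold change of 1.36 (SE 0.10, edgeR FDR 2.28e-08). Tsc22d2 was at -0.14 (SE 0.07) and Tsc22d4 at -0.04 (SE 0.06), and neither was called. Txnip, the alpha-arrestin that binds thioredoxin and restrains glucose uptake, rose from 149 CPM (118 to 176) to 496 CPM (479 to 539), at 1.78 (SE 0.09, edgeR FDR 3.38e-10). Arrdc1 and Arrdc4 were at -0.07 (SE 0.06) and -0.11 (SE 0.10), not called.

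Map3k5, the kinase ASK1 that pairs with ASK2, rose from 28.2 CPM (22.5 to 31.9) to 43.2 CPM (40.2 to 49.3), at 0.68 (SE 0.08, edgeR FDR 5.30e-06). Map3k15 was at -0.02 (SE 0.06). Lpin3 rose from 6.95 CPM (6.39 to 8.10) to 9.06 CPM (8.12 to 9.93), at 0.35 (SE 0.08, edgeR FDR 0.00285), a call lost with library totals or TPM, and Lpin2 was at -0.02 (SE 0.08). Hif1a and Epas1, the oxygen-regulated subunits that Hif3a opposes, were at 0.05 (SE 0.08) and -0.01 (SE 0.10), the first turning to -0.07 with library totals. Rhoa was at 0.08 (SE 0.04), -0.04 with library totals, and Rhoc at 0.18 (SE 0.08), neither called. Whether a chosen gene differed from its relatives was not tested.

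**Figure D3:**
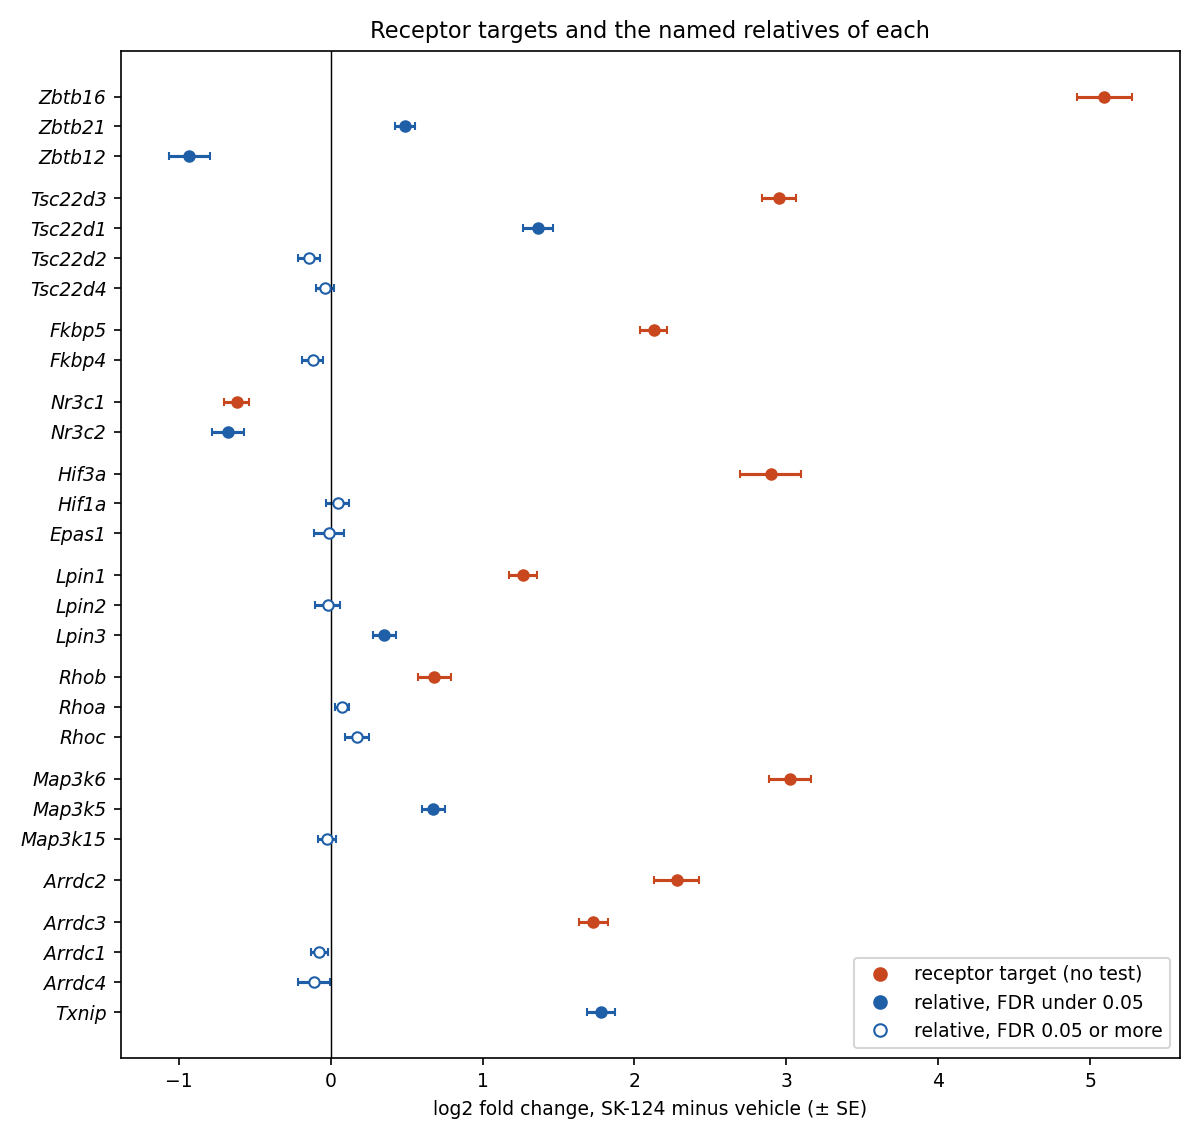
Points give the log2 fold change, SK-124 minus vehicle, with its SE for the 10 chosen genes (orange, no test) and their named relatives (blue, filled where the edgeR FDR was below 0.05). Zbtb16 stands at 5.09 while its family runs from -0.93 to 0.49, and Tsc22d1, Txnip, Map3k5 and Lpin3 are the relatives above 0 that were called beside Zbtb21.

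A second list held 36 other genes known to answer to glucocorticoids in some tissue, of which 35 were tested. Of these 29 rose (82.9%, against 10.8% of all genes), 1 fell and 5 were not called, and the median log2 fold change was 1.52. Of the 34 that the vehicle mice alone would have carried through the filter on low counts, all but Slc10a6, 28 rose and 1 fell. The list was written with earlier results of these data known, 5 of its genes having been named there as higher, so its count is not independent evidence of a direction. Without those 5, 24 of 30 rose, 1 fell and the median was 1.34. Many of its genes also answer to cyclic AMP, insulin or stress.

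The 6 largest rises were led by Ddit4, an inhibitor of mTORC1, from a median of 4.95 CPM (4.21 to 5.64) to 84.7 CPM (70.0 to 108), a log2 fold change of 4.15 (SE 0.12, edgeR FDR 4.64e-13). Slc10a6, a transporter of sulfated steroids, went from 0.174 CPM (0.0948 to 0.237) to 2.92 CPM (2.30 to 4.80), at 4.12 (SE 0.26). It had 2 to 5 counts in each vehicle mouse and 44 to 97 in each SK-124 mouse, and since it passed the filter on low counts only through the treated mice it had to differ, so no test is given for it. Igfbp1, an insulin-like growth factor binding protein, rose from 6.07 CPM (3.57 to 7.49) to 89.9 CPM (56.5 to 143), at 4.02 (SE 0.23, edgeR FDR 1.19e-09). All 6 of these genes had every treated mouse above every vehicle mouse, as did 26 of the 35 targets tested, against 6.32% of all genes. That count too comes from a list written with earlier results known. Cebpd, a C/EBP transcription factor, rose by 3.76 (SE 0.18, edgeR FDR 1.41e-10), Cdkn1a, the cell cycle inhibitor p21, by 3.43 (SE 0.12, edgeR FDR 1.94e-12) and Mt2, a metallothionein, by 2.74 (SE 0.21, edgeR FDR 5.55e-08) on the log2 scale. Mt2 ran from 90.9 to 239 CPM in treated mice.

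At the other end, Mertk, a receptor tyrosine kinase for the uptake of dead cells, fell from 39.8 CPM (33.5 to 46.8) to 33.8 CPM (29.5 to 36.7), at -0.24 (SE 0.08, edgeR FDR 0.0325), with overlapping groups. That call was lost without any of vehicle mice 1, 5 or 6 or SK-124 mice 2, 3 or 6, with log2 fold changes of -0.29 to -0.19 over the 12 mice left out in turn. Snai2 (-0.63, SE 0.27, edgeR FDR 0.0969), Tgm2 (-0.16, SE 0.06, edgeR FDR 0.0553) and Cdkn1c (-0.15, SE 0.08, edgeR FDR 0.203) were not called. Tat, a classical target in liver, was not tested for want of counts.

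**Figure D4:**
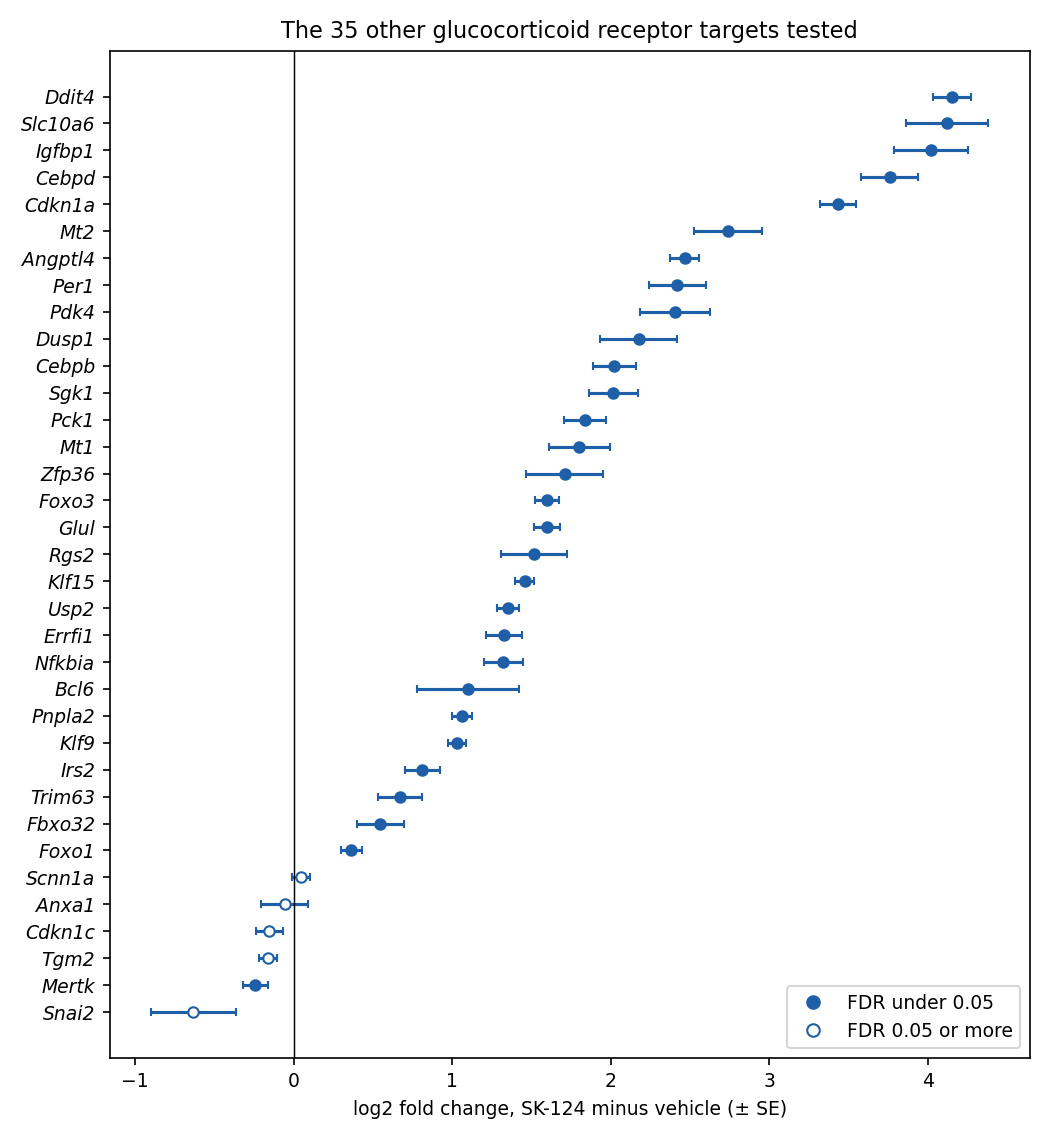
The log2 fold change, SK-124 minus vehicle, with its SE is plotted for the 35 other receptor targets tested, filled where the edgeR FDR was below 0.05. The filled points above 0 number 29, up to Ddit4 at 4.15. They include Slc10a6, which passed the filter on low counts only through the treated mice, so its fill is not read as a test. Mertk at -0.24 is the filled point below 0.

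The genes that handle hormone and receptor were a list of 22. Of these, 2 rose (9.09%, against 10.8% of all genes), 2 fell (9.09%, against 13.5%) and 18 were not called, and the median log2 fold change was 0.02. None of the 9 chaperones and co-chaperones was called by edgeR, with 0 at an unadjusted p below 0.05 and 0 by DESeq2 or limma. With library totals in edgeR, Fkbp4 of these 9 was called, at -0.23 (FDR 0.0277), and 3 genes of the list of 22 were lower in place of 2. Nr3c2, the mineralocorticoid receptor and sister of Nr3c1, fell from 11.8 CPM (9.09 to 13.5) to 7.17 CPM (6.33 to 8.47), at -0.67 (SE 0.10, edgeR FDR 0.000127). Hsd11b2, which inactivates corticosterone in the distal nephron, fell from 121 CPM (114 to 138) to 94.5 CPM (90.7 to 101), at -0.35 (SE 0.05, edgeR FDR 9.99e-05). Both had every treated mouse below every vehicle mouse.

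Ncoa2, a coactivator that the receptor recruits, rose from 59.7 CPM (33.5 to 61.7) to 75.1 CPM (67.5 to 97.5), at 0.48 (SE 0.12, edgeR FDR 0.00801), vehicle mouse 3 being far below its group. H6pd, which makes the cofactor for the reactivation of corticosterone, rose from 177 CPM (159 to 189) to 206 CPM (181 to 218), at 0.21 (SE 0.06, edgeR FDR 0.0107). Both calls were lost on the TPM scales, that of H6pd also with library totals or SK-124 mice 1 to 3 only and that of Ncoa2 with SK-124 mice 4 to 6 only. Crebbp at 0.21 (SE 0.09), turning to about 0 on log2(TPM + 0.1), and Fkbp4, the co-chaperone that opposes Fkbp5, at -0.12 (SE 0.07) were not called.

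Markers of the cells a kidney sample can hold were counted beside these results, and their part in them was not tested. Of 12 adrenal genes 5 were at 0 in every mouse, and their sum was 0.613 to 1.09 CPM in vehicle and 0.952 to 2.82 CPM in SK-124 mice. None of the 5 blood genes was called by edgeR, DESeq2 or limma, with 0 at an unadjusted p below 0.05. Of the 2 of 7 fat genes that could be tested, 0 were called by edgeR, 1 had an unadjusted p below 0.05, 1 was called by DESeq2 and 0 by limma. Of the proximal tubule genes 1 of 10 was called, of the thick ascending limb and distal genes 1 of 6, and of the podocyte genes 1 of 5, all 3 higher, beside 24.4% of all genes called in either direction. Among collecting duct genes Aqp2 was higher (0.75, SE 0.14, edgeR FDR 0.000852), and Avpr2 (-1.17, SE 0.11) and Slc4a1 (-0.59, SE 0.09) were lower. Among 5 immune genes tested Cd68 (-0.60, SE 0.13, edgeR FDR 0.00213) and Cd79a (-1.75, SE 0.32, edgeR FDR 0.000627) were lower. Ptprc (-0.29, SE 0.13), Csf1r (0.18, SE 0.07) and Lyz2 (0.06, SE 0.12) were not called. Kdr (-0.85, SE 0.16, edgeR FDR 0.000647) was lower among 5 endothelial genes. Cdh5 (0.29, SE 0.12), Pecam1 (0.07, SE 0.11), Emcn (-0.24, SE 0.12) and Tie1 (-0.20, SE 0.11) were not called, so neither list moved 1 way. With SK-124 mice 1 to 3 alone or mice 4 to 6 alone against all vehicle mice, each of the 10 chosen genes kept its direction.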

How the data were processed

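Whole-kidney RNA of 12 mice was sequenced on the BGISEQ500 platform. Per the submitters' processing notes the authors used STAR 2.7.2b, RSEM 1.3.0, FastQC and DESeq2 with mm10. The annotation and strand setting are not given in the sources used here. The authors deposited expected counts and TPM per gene and mouse from RSEM. Expected counts were rounded to whole numbers and filtered with filterByExpr, and edgeR 4.0.16 (quasi-likelihood, TMM, R 4.3.3) was fitted to all 12 mice. Each SE was derived from the log2 fold change and its F statistic. Symbols came from GENCODE M21, in which 54349 of 55401 identifiers matched with version, 792 without it and 260 not at all. The identifier of Lpin1 differed in version, so its gene coordinates are not given. Promoter windows came from RefSeq (GRCm38.p6).

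The 10 genes and all lists were chosen with earlier results of these data known. Genes named beyond the 10 followed fixed rules: the 6 largest and 4 smallest log2 fold changes of the other targets, 3 and 3 of the receptor machinery, listed relatives, the extreme BTB genes and the 5 most like Zbtb16. Marker genes named are those called and, for the immune and endothelial lists, also those tested and not called. Correlations, and their exact permutation over the 720 orderings of 6 mice, were computed with numpy 2.4.6. Ranks for Spearman's rho came from scipy 1.17.1. Alternatives used DESeq2 1.42.0, limma 3.58.1, other normalization, filters, units and mice. The steps were tested on simulated data. There, edgeR and limma stayed within the limit set for false calls, whereas DESeq2 exceeded it. The limit was then lifted for DESeq2 alone, after that result was seen, so its counts may hold more false calls than its threshold states. The labels do not say whether the mice were housed or handled apart, so p-values measure the spread between these mice. No 2 libraries of the same group agreed within sampling noise.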

Additional observations from a re-analysis of the deposited data

Results flagged for a closer look

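Within groups of 6 mice, 11 values stood apart from the other 5 by a gap wide enough against the group's whole range to pass Dixon's test, out of 94 groups of values examined, where chance alone gives about 4.7. Of the 20 groups of values of the 10 chosen genes 3 had such a mouse. Tsc22d3 was at 14.2 CPM in vehicle mouse 5, the next highest being 10.2, and at 102 CPM in SK-124 mouse 6, the next being 79.6. Hif3a was at 1.36 CPM in vehicle mouse 4, the next being 0.712. Vehicle mouse 5 also stood apart for Cebpd (6.93 CPM, next 3.78) and Cdkn1a (7.64 CPM, the lowest, next 9.48). Vehicle mouse 3 stood apart for Ncoa2 (33.5 CPM, the lowest, next 58.2), Hsd11b2 (138 CPM, next 123) and Rhoc (73.2 CPM, next 58.2). SK-124 mouse 4 stood apart for Slc10a6 (4.80 CPM, next 3.04) and Zbtb21 (15.7 CPM, next 13.6), and SK-124 mouse 6 for Cdkn1c (10.997 CPM, the lowest, next 12.9).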

How the results depend on the processing

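Genes with few counts, such as Slc10a6 with 2 to 5 in each vehicle mouse, are limited by depth, and intervals were not computed for single mice. All 220 refits of the 10 chosen genes (10 genes, 22 alternatives) kept the direction, and 13, each on a TPM scale, moved by more than the SD between mice. Their median log2 fold change was 1.56 on log2(TPM + 1) and 1.93 on log2(TPM + 0.1), against 2.20. For the named other genes, 744 of 813 refits kept direction and side of the threshold, 38 crossed it and 31 turned the sign. Where a cause is not given, the cause was not tested.

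Over all genes, 777 were higher and 3058 lower with library totals only. By limma 500 were higher on log2(TPM + 1) and 498 on log2(TPM + 0.1). With SK-124 mice 1 to 3 only, 1233 were lower, and with mice 4 to 6 only, 1267. Of the other targets, in place of 1, 2 were lower by DESeq2, 4 with library totals, 2 with at least 10 counts in every mouse, 3 on each TPM scale, 0 with mice 1 to 3 only, 0 with mice 4 to 6 only, and 0 to 1 with each mouse left out. The list without the 5 genes named in earlier results, an alternative added after seeing the data, had 24 higher. Of the receptor machinery, in place of 2, 1 was higher with library totals, 0 on each TPM scale, 1 with mice 1 to 3 only and 1 with mice 4 to 6 only. Of the relatives, in place of 7, 3 were higher on log2(TPM + 1) and 4 on log2(TPM + 0.1), and in place of 9, 18 were lower with library totals, 5 with mice 1 to 3 only and 4 with mice 4 to 6 only.

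All 31 turned signs were in genes that edgeR with TMM factors and all mice did not call, though Crebbp (0.21) was called without SK-124 mouse 4 (0.28, edgeR FDR 0.0124). With library totals, log2(TPM + 1) and log2(TPM + 0.1), Hif1a went to -0.072, -0.086 and -0.092, Rhoa to -0.037, -0.069 and -0.070 and Sugp1 to -0.100, -0.125 and -0.139. Crebbp went to -0.0033 on log2(TPM + 0.1). With SK-124 mice 1 to 3 only, Epas1 was at 0.010, Lpin2 at 0.0095 and Sugp1 at -0.035, and with mice 4 to 6 only Tsc22d4 was at 0.058. With each mouse left out in turn, Tsc22d4 ran from -0.067 to 0.0020, Hif1a from -0.016 to 0.084, Epas1 from -0.063 to 0.056, Lpin2 from -0.084 to 0.013, Map3k15 from -0.046 to 0.0049 and Sugp1 from -0.046 to 0.038.

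The median r between the chosen genes in vehicle mice was -0.086 by Spearman's rho, and in SK-124 mice 0.512 on log2(TPM + 1) and 0.516 on log2(TPM + 0.1). With each SK-124 mouse left out it ran from -0.116 to 0.198. A change was judged against the leave-one-out standard error of the median. With replicate number as a block, 1573 genes were higher and 1893 lower, and 2 of the other targets were lower. Same-numbered mice did not deviate together, with correlations from -0.131 to 0.217, 2 vehicle mice and 2 SK-124 mice correlating best with their own number, so the numbers were not read as a pairing.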
